A study of Mus musculus with 16 samples.

Results

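The genes described here are 10 inhibitors of cyclin-dependent kinases (CDKs) and regulators of cellular senescence, namely Cdkn1a, Cdkn1b, Cdkn1c, Cdkn2a, Cdkn2b, Cdkn2c, Trp53, Mdm2, Rb1 and Lmnb1. They were chosen by symbol, and all 10 were found among the 24411 gene symbols of the count and TPM tables. RNA was sequenced from a 5 mm section of spinal cord of 16 female C57BL/6J mice, listed in the labels as 12 wk old. The SCI + Vehicle group (7 mice) received a lateral compression of the thoracic cord to a gap of 0.25 mm and daily intraperitoneal vehicle (DMSO, PEG 400, Tween 80 and saline). The SCI + Atorvastatin group (7 mice) received the same injury and atorvastatin at 10 mg/kg, both treatments running for 4 wk from 2 wk after injury, with tissue taken at 6 wk after injury. The Uninjured Control group (2 mice) had neither an injury nor a treatment. The labelled age is that at injury for the SCI mice. The paper gives the uninjured mice an older age at tissue collection than the labels do, but still younger than the SCI mice at theirs, so that age and injury cannot be told apart in the comparisons with Uninjured Control. No uninjured mice received atorvastatin.

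CDK inhibitors stop cells before DNA synthesis. Proteins of the CIP/KIP family (p21, p27 and p57) bind cyclin-CDK complexes, and those of the INK4 family (p15, p16 and p18) bind CDK4 and CDK6 and block their pairing with D-type cyclins. Both keep the retinoblastoma protein unphosphorylated, so that E2F factors stay inactive. The p53 protein induces p21 and its own inhibitor Mdm2. Cells that leave the cycle for good are called senescent. They typically carry high p16 or p21, lose lamin B1 from the nuclear envelope and secrete cytokines, proteases and growth factors. In the injured cord, resident glia, infiltrating macrophages and fibroblasts divide, and senescent cells have been described near the lesion.

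Library totals were 14823292 to 25579826 counts in the SCI mice, and 20211276 and 22368736 in the Uninjured Control mice. Markers of the labelled tissue were present. The 7 astrocyte markers summed to at least 6627 CPM (counts scaled to library size with TMM factors) in every library, the 8 oligodendrocyte markers to at least 13219 CPM and the 10 neuron markers to at least 4975 CPM. The Uninjured Control libraries stood apart in their zeros. Of the 3239 genes whose SCI mice averaged 200 to 500 counts, 20.9% were at 0 in 1 of the 2 uninjured mice and not in the other. In no SCI mouse was the share at 0 above 0.247%. The 6 liver markers summed to 3757 CPM in uninjured mouse 1 and 610 CPM in uninjured mouse 2, against at most 6.53 CPM in any SCI mouse. The 12 markers of microglia or macrophages summed to 148 and 251 CPM in the uninjured mice and to between 1278 and 2135 CPM in the SCI mice, and the 10 neuron markers were higher in both uninjured mice (9591 and 10608 CPM) than in any SCI mouse (4975 to 8484 CPM). The part of these differences in any result against the Uninjured Control group was not tested. In bulk tissue, fewer cells of a type and less RNA per cell cannot be told apart.

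The fits covered 16091 genes whose TPM averaged above 1 in some condition, among them all 10 described here. Cdkn2a passed only through the SCI + Atorvastatin group, and Cdkn2c only through the SCI groups, so that it was admitted by the groups where it is high. To be called against Uninjured Control, a gene needed a log2 fold change beyond 0.322 in either direction with an adjusted p below 0.05. With SCI + Vehicle set against the uninjured mice, 3 of the 10 were upregulated (Cdkn1a, Cdkn2c and Rb1) and 0 downregulated, beside 19.8% of all genes tested upregulated and 9.55% downregulated. With SCI + Atorvastatin there were 4 upregulated (the same 3 and Lmnb1) and 0 downregulated, beside 24.9% and 14% of all genes. Both comparisons use the same 2 control mice. With the filter set to a TPM above 1 in every condition, Cdkn2a and Cdkn2c left the fits and 2 and 3 of the remaining 8 genes were called. Of all 12559 genes then tested, 1261 were upregulated and 1137 downregulated in SCI + Vehicle, and 1774 and 1936 in SCI + Atorvastatin. Between the treatments, 0 of the 10 were called. With a quality weight for each group (limma voom), 0 of the 10 were called in either comparison with the uninjured mice, and of all genes tested only 133 and 146. The median log2 fold change over all genes tested was 0.17 in the first comparison and 0.21 in the second, so a fold change near these values was no more than that of the median gene.

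**Figure D1:**
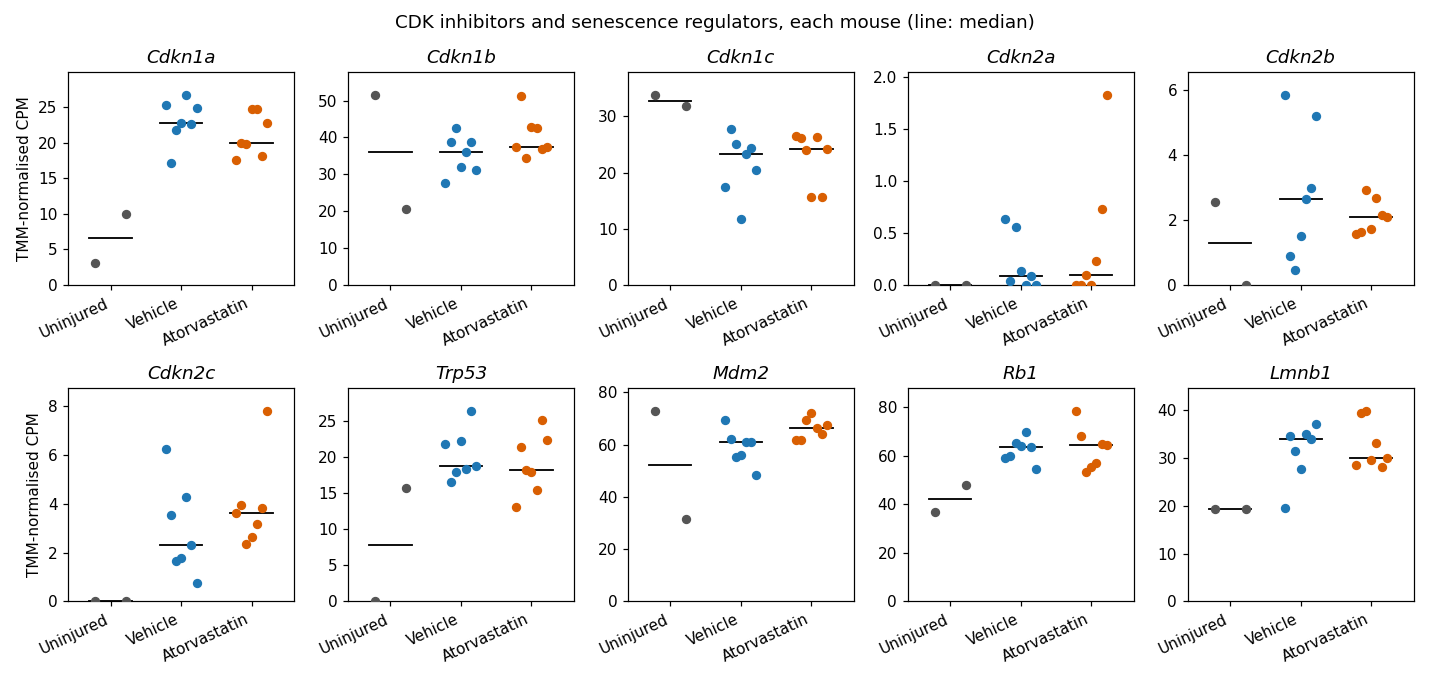
CPM (TMM-normalised, y axis) of the 10 genes in each of the 16 mice, grouped on the x axis as Uninjured Control, SCI + Vehicle and SCI + Atorvastatin, with a line at each group's median. For Cdkn1a, Cdkn2c, Rb1 and Lmnb1 every SCI mouse lies above both uninjured mice, whereas for Cdkn1b and Mdm2 all 14 SCI mice lie between the 2 uninjured mice.

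Compared per transcript length, in TPM, over the 14 SCI mice, the genes fell into a higher and a lower tier. Mdm2 was highest at 45.9 ± 4.93 TPM (SD, n = 14), followed by Cdkn1b (37.5 ± 6.30), Cdkn1a (30.6 ± 4.93), Rb1 (28.6 ± 4.41), Lmnb1 (25.7 ± 5.74), Cdkn1c (25.3 ± 6.80) and Trp53 (24.6 ± 4.57). The 3 ranked INK4 genes formed the lower tier. Cdkn2c was at 5.22 ± 2.58, Cdkn2b at 4.86 ± 3.19 and Cdkn2a at 1.29 ± 2.29 TPM. The INK4 gene Cdkn2d, which was not ranked, was at 35.1 ± 3.30 TPM in the same mice. The step from Trp53 to Cdkn2c was the only one between neighbours that exceeded the sum of both SDs, and Trp53 was above Cdkn2c in 14 of 14 mice. The sum of SDs ignores that all genes were measured in the same mice. Within mice, Mdm2 was above Cdkn1b in 12 of 14, Cdkn1b above Cdkn1a in 11 and Cdkn2b above Cdkn2a in 12. For the remaining neighbours the higher-ranked gene was above the next in 6 to 10 of 14 mice.

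Cdkn1a encodes p21, the CDK inhibitor that p53 induces, and lies at chr17:29090976-29100727 on the plus strand (GRCm38). In the SCI + Vehicle mice its level ran from 17.1 to 26.7 CPM with a median of 22.8 CPM. The SCI + Atorvastatin mice spanned 17.5 to 24.8 CPM with a median of 19.98 CPM. The uninjured mice had 3.07 and 9.99 CPM, or 61 and 220 counts. Every injured mouse was thus above both uninjured mice, and both injured groups covered nearly the same range. Cdkn1a was upregulated by 1.80 on the log2 scale in SCI + Vehicle (SE 0.43, adjusted p = 0.0105) and by 1.70 in SCI + Atorvastatin (SE 0.42, adjusted p = 0.00909). Groups without overlap in this direction were found for 24.8% of all genes tested in the first comparison and 29.8% in the second. The uninjured mice differed from each other 3.25-fold, so the size depended on which was used. It was 2.89 in SCI + Vehicle against uninjured mouse 1 alone and 1.19 against uninjured mouse 2 alone, and Cdkn1a was called in both cases.

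RefSeq (GRCm38.p6) gives Cdkn1a a pair of transcription starts 2790 bases apart, and the 250 bases before each are printed because this was a gene called in both SCI groups against either uninjured mouse alone. The p53 decamer is a part of the sequence that p53 binds, not the whole. Capitals mark matches to it and to ACATGT in the first sequence, and to GGGCGG (the GC box) and TATAA in the second. All were searched on both strands.
Cdkn1a, upstream start, chr17:29090729-29090978, plus strand: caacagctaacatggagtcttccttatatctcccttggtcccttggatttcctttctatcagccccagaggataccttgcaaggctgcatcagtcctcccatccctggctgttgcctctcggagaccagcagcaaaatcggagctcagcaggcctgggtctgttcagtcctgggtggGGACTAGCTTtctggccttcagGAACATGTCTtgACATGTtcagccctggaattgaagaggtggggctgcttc
Cdkn1a, downstream start, chr17:29093519-29093768, plus strand: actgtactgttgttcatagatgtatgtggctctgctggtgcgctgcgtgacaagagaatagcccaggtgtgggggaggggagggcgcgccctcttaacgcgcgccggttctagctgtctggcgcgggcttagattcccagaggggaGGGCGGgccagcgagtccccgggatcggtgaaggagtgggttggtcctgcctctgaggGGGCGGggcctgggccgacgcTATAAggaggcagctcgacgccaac
In the upstream sequence the decamer GAACATGTCT starts at position -51 from the transcription start and GGACTAGCTT at -73. ACATGT occurs at -49, inside the first of these, and again at -39. The downstream sequence holds TATAA at -25 and GGGCGG at -46 and -104. TATAA also has a match on the other strand of the upstream sequence at -227, which is not capitalised. A p53 decamer was found in 7.13% of the 32851 promoters of the table, ACATGT in 4.58%, GGGCGG in 32.7% and TATAA in 22.8%. Of the 10 listed promoters of these genes, from 7 of the 10 genes, 3 held a p53 decamer, belonging to Cdkn1a, Trp53 and Mdm2, and 5 held GGGCGG. These are matches of letters, and binding was not measured. The counts do not separate transcripts from either start.

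Cdkn1b encodes p27 and lies at chr6:134920401-134925513 on the plus strand. Its level was 27.7 to 42.5 CPM (median 36.0) in SCI + Vehicle and 34.4 to 51.1 CPM (median 37.5) in SCI + Atorvastatin. In the uninjured mice it was 51.6 and 20.5 CPM. All 14 injured mice lay between these. Its log2 fold change came to -0.04 in SCI + Vehicle (SE 0.30, adjusted p = 0.938) and 0.17 in SCI + Atorvastatin (SE 0.29, adjusted p = 0.685). Against uninjured mouse 1 alone the values were -0.56 and -0.35, and against uninjured mouse 2 alone 0.77 and 0.99, the last 2 past the call thresholds.

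Cdkn1c encodes p57, the imprinted member of the family, at chr7:143458339-143461050 on the minus strand. In SCI + Vehicle it ranged from 11.7 to 27.7 CPM around a median of 23.2 CPM, and in SCI + Atorvastatin from 15.6 to 26.5 CPM around 24.1 CPM. The uninjured mice had 33.8 and 31.8 CPM, above every injured mouse. Groups without overlap in the lower direction were found for 10.7% of all genes in the first comparison and 14.2% in the second. The log2 fold changes of -0.63 (SE 0.30, adjusted p = 0.137) and -0.53 (SE 0.25, adjusted p = 0.123) did not pass the test. The deposited units disagreed in 1 library. Uninjured mouse 1 had 673 counts but 1.63 TPM, whereas uninjured mouse 2 had 700 counts and 30.25 TPM. On log2(TPM + 1) the fold changes were 1.41 and 1.56, also not called, and the cause of the turn was not tested.

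Cdkn2a encodes p16 and, from another reading frame, ARF, the inhibitor of Mdm2. It lies at chr4:89274471-89294653 on the minus strand, 11646 bases from Cdkn2b. Its counts were 0 to 15 per library in SCI + Vehicle (median 2) and 0 to 45 in SCI + Atorvastatin (median 2). The units disagreed here too. The library with 15 counts in SCI + Vehicle (replicate 1, 0.631 CPM) was listed at 0 TPM, whereas SCI + Atorvastatin replicate 3 had 2 counts and 2.47 TPM. Both uninjured mice had a count of 0. Of the 14 injured mice, 5 also had 0, so the groups overlapped. With 0 counted, a level of up to 3 counts in a library cannot be seen, at most 0.151 CPM in the uninjured mice, and 2 of 7 SCI + Vehicle and 3 of 7 SCI + Atorvastatin mice were above this level. SCI + Atorvastatin replicate 7 reached 1.83 CPM, and the next highest of its group 0.730 CPM. Cdkn2a was called in neither comparison with the uninjured mice (adjusted p = 0.202 in SCI + Vehicle and 0.179 in SCI + Atorvastatin), and a difference was not detectable at these counts. Counts per gene do not separate p16 from ARF.

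Cdkn2b encodes p15, which TGF-beta induces, and lies at chr4:89306299-89311039 on the minus strand. The SCI + Vehicle mice spread widely, from 0.474 to 5.85 CPM with a median of 2.64 CPM. The SCI + Atorvastatin mice spanned 1.56 to 2.93 CPM with a median of 2.08 CPM. Uninjured mouse 1 had 2.57 CPM (51 counts) and uninjured mouse 2 had 0 counts. Uninjured mouse 1 lay within both injured groups. Its coefficient of variation among the SCI + Vehicle mice was 74.5%, where counting error alone gives 12.6%, and among the SCI + Atorvastatin mice 25.1%, where it gives 14.4%. The log2 fold changes of 1.11 (SE 1.44, adjusted p = 0.604) and 0.72 (SE 1.14, adjusted p = 0.657) were not called. With uninjured mouse 2 alone, which was at 0, Cdkn2b was called in both comparisons.

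Cdkn2c encodes p18, an INK4 inhibitor of CDK4 and CDK6, and lies at chr4:109660876-109667189 on the minus strand. It had 17 to 149 counts in SCI + Vehicle (0.749 to 6.27 CPM, median 2.30) and 47 to 192 counts in SCI + Atorvastatin (2.33 to 7.81 CPM, median 3.61). Both uninjured mice had 0 counts. All 14 injured mice were above 3 counts. Cdkn2c entered the fits only through the SCI groups, where it is high, so its adjusted p values are no independent support. Measured against 3 counts per library, which covers counting error only, the group mean was 19.4-fold higher in SCI + Vehicle and 25.9-fold higher in SCI + Atorvastatin. The edgeR adjusted p values were 0.00345 and 0.000307. They belong to fold changes fitted to the 0 counts and do not test these ratios. Among genes whose SCI mice averaged 50 to 200 counts, as Cdkn2c did, 31.6% had 0 counts in both uninjured mice and 40.2% in only 1 of them. A 0 in these libraries therefore does not bound the level as closely as counting error would. The call was also made with either uninjured mouse alone. RefSeq lists a pair of starts for Cdkn2c, and which is used was not measured. The sequence before the upstream one is printed as that of the other gene called in both SCI groups against either uninjured mouse, with GGGCGG in capitals at positions -95, -51 and -40.
Cdkn2c, upstream start, chr4:109666757-109667006, minus strand: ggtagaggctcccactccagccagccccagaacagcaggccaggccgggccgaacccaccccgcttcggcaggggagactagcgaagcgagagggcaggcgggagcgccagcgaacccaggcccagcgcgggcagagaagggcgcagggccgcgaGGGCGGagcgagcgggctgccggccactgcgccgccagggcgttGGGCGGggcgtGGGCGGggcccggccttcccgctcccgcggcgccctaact
No p53 decamer, TATAA or ACATGT was found in it, and none of the 4 motifs in the sequence before the downstream start. Within the INK4 family, Cdkn2d (p19), which was not among the 10, had 14.5 to 17.4 CPM in SCI + Vehicle, 12.9 to 15.3 CPM in SCI + Atorvastatin, and 22.7 and 4.67 CPM in the uninjured mice. Its log2 fold changes of 0.18 and 0.06 were not called. The longest run of bases shared between annotated transcripts of any 2 of the 6 CDK inhibitor genes was 23.

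Trp53 encodes p53 and lies at chr11:69580359-69591873 on the plus strand. Its level was 16.6 to 26.4 CPM in SCI + Vehicle (median 18.8) and 13.1 to 25.1 CPM in SCI + Atorvastatin (median 18.3). In uninjured mouse 1 the count was 0 and in uninjured mouse 2 it was at 15.7 CPM. Genes at 0 in a single uninjured mouse made up 20.9% of those with 200 to 500 counts, where Trp53 lies. The SCI + Vehicle mice were all above both uninjured mice, whereas 2 SCI + Atorvastatin mice fell below uninjured mouse 2. The log2 fold changes of 1.36 (SE 1.14, adjusted p = 0.403) and 1.296 (SE 1.16, adjusted p = 0.415) were not called. Against uninjured mouse 2 alone they were 0.36 and 0.30, not called. Against uninjured mouse 1 alone, which was at 0, the gene was called in both comparisons.

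Mdm2 encodes the ubiquitin ligase that degrades p53 and is itself a p53 target, at chr10:117688875-117710758 on the minus strand. It ran from 48.4 to 69.6 CPM in SCI + Vehicle (median 61.0) and from 61.7 to 72.0 CPM in SCI + Atorvastatin (median 66.4). The uninjured mice had 72.9 and 31.6 CPM, and all 14 injured mice lay between them. Mdm2 had a log2 fold change of 0.16 in SCI + Vehicle (SE 0.26, adjusted p = 0.678) and of 0.35 in SCI + Atorvastatin (SE 0.24, adjusted p = 0.288). Its sign depended on the control, with -0.32 and -0.14 against uninjured mouse 1 alone and 0.89 and 1.08 against uninjured mouse 2 alone, the last 2 called.

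Rb1 encodes the retinoblastoma protein, the brake that CDK inhibitors preserve, at chr14:73183673-73325822 on the minus strand. It was measured at 54.6 to 69.7 CPM in SCI + Vehicle (median 63.6) and 53.2 to 78.5 CPM in SCI + Atorvastatin (median 64.5). The uninjured mice had 36.6 and 47.7 CPM, below every injured mouse. Rb1 was upregulated by 0.55 on the log2 scale in SCI + Vehicle (SE 0.16, adjusted p = 0.0239) and by 0.59 in SCI + Atorvastatin (SE 0.18, adjusted p = 0.0233). Against uninjured mouse 2 alone the changes were 0.37 (adjusted p = 0.112) and 0.41 (adjusted p = 0.0819) and were no longer called, and limma on TPM did not call Rb1 in SCI + Atorvastatin. The opposite strand holds Lpar6 and Rcbtb2 within the span of Rb1. Whether the counting used strand is not given in the sources used here. Neither gene was called in either comparison (smallest adjusted p = 0.195).

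Lmnb1 encodes lamin B1, a structural protein of the nuclear lamina, at chr18:56707813-56753424 on the plus strand. Its level was 19.6 to 37.2 CPM in SCI + Vehicle (median 34.0) and 28.1 to 39.9 CPM in SCI + Atorvastatin (median 30.0). The uninjured mice had 19.3 and 19.4 CPM. Every injured mouse was above both, though SCI + Vehicle replicate 1, at 19.6 CPM, was only just so. Lmnb1 was upregulated by 0.77 in SCI + Atorvastatin (SE 0.21, adjusted p = 0.0140). In SCI + Vehicle the log2 fold change was 0.69 (SE 0.26, adjusted p = 0.0726), not called by edgeR. DESeq2 called it, as did edgeR with all 3 groups in 1 fit or without SCI + Vehicle replicate 1. That it passed the test in 1 group and not in the other does not show a difference between the groups, whose own comparison gave 0.05 (SE 0.13, adjusted p = 0.962).

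**Figure D2:**
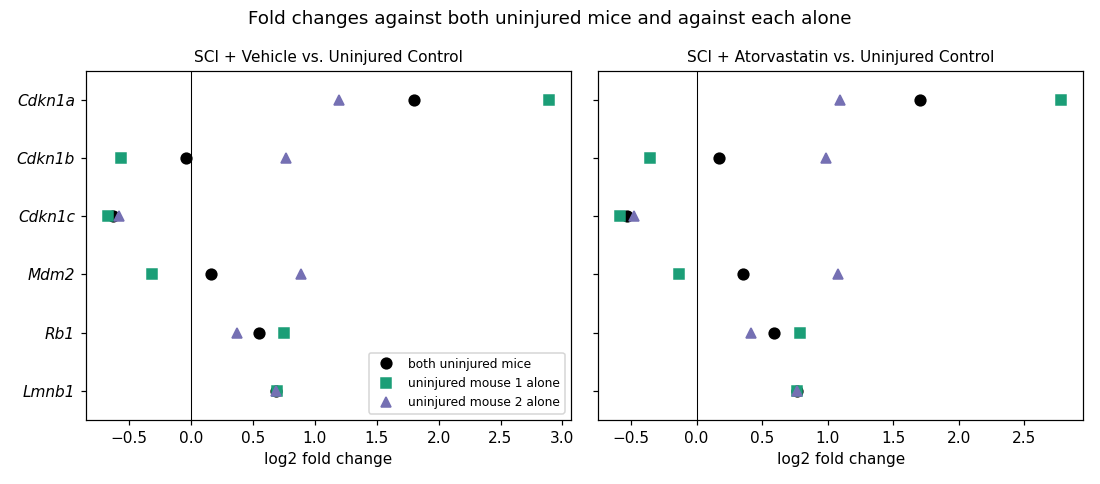
Log2 fold change (x axis) of 6 genes (y axis) in SCI + Vehicle vs. Uninjured Control (left) and SCI + Atorvastatin vs. Uninjured Control (right), fitted with both uninjured mice (circles), with mouse 1 alone (squares) or with mouse 2 alone (triangles). Genes at 0 in an uninjured mouse are left out. Cdkn1b and Mdm2 lie on both sides of 0, whereas Cdkn1a, Rb1 and Lmnb1 stay above 0 and Cdkn1c below it.

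The 14 mice of the SCI groups allowed the treatments to be compared with 7 mice on each side, and here 0 of the 10 genes passed the test. A call between the treatments needed a log2 fold change beyond 0.322 and an unadjusted p below 0.001, which 0.087% of all genes passed with a higher level in SCI + Atorvastatin and 0.0186% with a lower one. None of the 10 passed by edgeR or DESeq2. By edgeR 0 of the 10 had an unadjusted p below 0.05, where 7.03% of all genes did. Mdm2 alone came below that level with group weights (limma voom) and without SCI + Vehicle replicate 1, with log2 fold changes of 0.17 and 0.21. At an adjusted p below 0.05, 0 of the 10 and 0% of all genes passed. The smallest p was that of Mdm2, with a log2 fold change of 0.16 (95% interval -0.01 to 0.33, adjusted p = 0.723). In Cdkn1b the change was 0.19 (-0.04 to 0.43, adjusted p = 0.749), and 6 of 7 SCI + Atorvastatin mice were above the SCI + Vehicle median. The interval for Cdkn1a was -0.39 to 0.14, for Trp53 -0.40 to 0.23, for Rb1 -0.17 to 0.21, for Lmnb1 -0.22 to 0.33 and for Cdkn1c -0.29 to 0.44. The INK4 genes among those described had few counts and wide intervals. These ran from -0.45 to 1.27 for Cdkn2c, from -1.40 to 0.59 for Cdkn2b and from -1.61 to 3.55 for Cdkn2a. The Cdkn2a difference of 0.97 turned to -0.24 when SCI + Atorvastatin replicate 7 was left out.

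**Figure D3:**
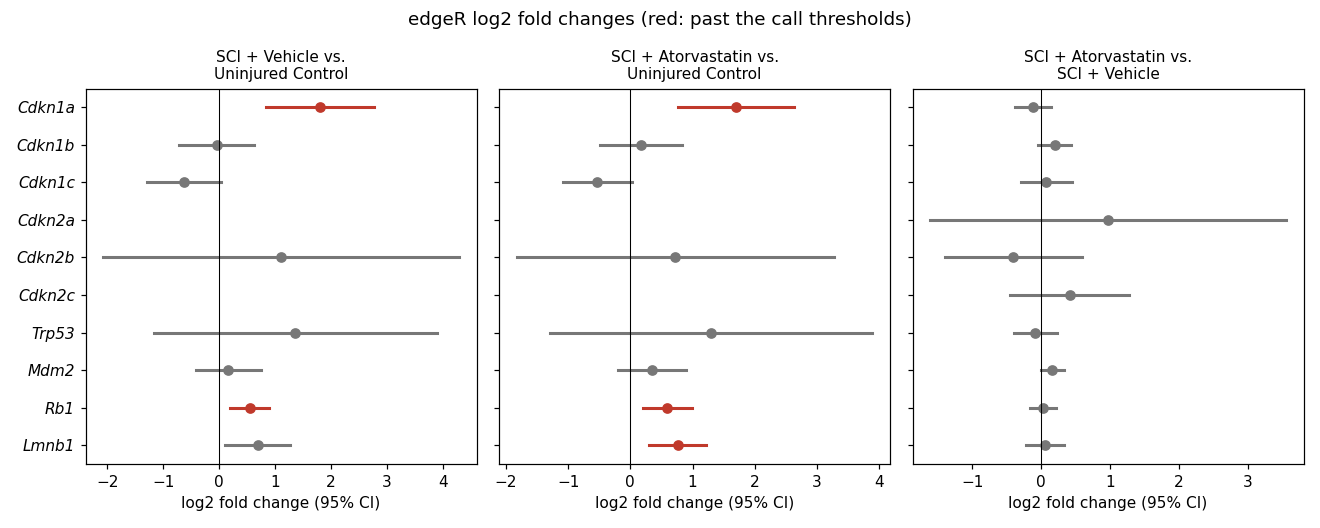
Log2 fold changes (x axis, points) with 95% intervals (lines) of the 10 genes (y axis) in the 3 comparisons, red where the call thresholds were passed. Cdkn2a and Cdkn2c are left out of the comparisons with Uninjured Control, where both uninjured mice had 0 counts. In SCI + Atorvastatin vs. SCI + Vehicle every interval includes 0.

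Among mice of a group the genes varied to different degrees. For Mdm2 the coefficient of variation was 5.87% in SCI + Atorvastatin and 11.3% in SCI + Vehicle. For Cdkn2c it was 46.6% and 64.5%. Counting error alone gives 10.5% and 12.3% for Cdkn2c, and 2.56% and 2.76% for Mdm2. The Cdkn2c value in SCI + Atorvastatin includes replicate 7, at 7.81 CPM with the next mouse at 3.94 CPM. Of the 45 pairs of genes, compared over the 14 SCI mice after removal of the group means, 0 had an adjusted p below 0.05 and 2 an unadjusted p below 0.05 (permutation test within groups, 100000 resamples, two-sided). The first was that of Cdkn1b and Cdkn2b (r = -0.65, permutation p = 0.0174, adjusted p = 0.494, Spearman's rho = -0.59, permutation p = 0.0476). The r was -0.59 without the 2 mice farthest from the median of Cdkn1b, -0.47 within SCI + Atorvastatin and -0.79 within SCI + Vehicle. The second was that of Cdkn2c and Mdm2 (r = 0.66, permutation p = 0.0268, adjusted p = 0.494), but rho was 0.33 (permutation p = 0.285) and r was 0.16 without the 2 mice farthest from the median of Cdkn2c, so that the pooled r rests on those mice. It was 0.96 within SCI + Vehicle and -0.27 within SCI + Atorvastatin, 0.68 on log2(TPM + 0.1), and 0.45 to 0.77 with each mouse left out in turn. Cdkn1a and Mdm2, both targets of p53, had an r of 0.17, and Cdkn1a and Trp53 one of 0.12.

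The other genes of these pathways were counted in 7 lists, to be read beside the 19.8% of all genes upregulated and 9.55% downregulated in SCI + Vehicle and the 24.9% and 14% in SCI + Atorvastatin. Genes at 0 in both uninjured mice entered the fits only through the SCI groups, where they are high. Their group means are set against a floor of 3 counts per library (counting error only). A 0 in these libraries does not bound the level as closely as that floor, so these folds are no lower bounds. Each list was therefore also counted among genes above 1 TPM in every condition. There, 1261 of all 12559 genes were upregulated and 1137 downregulated in SCI + Vehicle, and 1774 and 1936 in SCI + Atorvastatin. The number of genes each list kept there is not given, so these counts have no share. Of the p53 target genes, 9 of 30 tested were upregulated in SCI + Vehicle and 2 downregulated, and 9 and 4 in SCI + Atorvastatin. The shares upregulated were 30.0% in both, and those downregulated, at 6.67% and 13.3%, were near the shares of all genes. Of the 9 in SCI + Vehicle, 5 had 0 counts in both uninjured mice. Among genes above 1 TPM in every condition 4 and 6 were called. Rrm2b, a ribonucleotide reductase subunit used in DNA repair, rose from 11.1 and 15.4 CPM in the uninjured mice to 35.6 to 51.5 CPM in SCI + Vehicle, by 1.74 on the log2 scale (SE 0.23, adjusted p = 0.000434). Apaf1, the scaffold of the apoptosome, rose by 3.70 (SE 0.53, adjusted p = 0.000682), from 2.16 and 0.635 CPM to between 14.4 and 21.0 CPM. Psrc1, a spindle protein, was at 0 in both uninjured mice and 26.2-fold above the floor in SCI + Vehicle. Zmat3, an RNA-binding p53 target, fell by 0.79 (SE 0.19, adjusted p = 0.00956), and Ei24 by 0.58 (SE 0.14, adjusted p = 0.0104).

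Among 15 tested regulators of p53, 4 were upregulated and 1 downregulated in SCI + Vehicle, and 6 and 1 in SCI + Atorvastatin. With 26.7% and 40% upregulated, the first share was near that of all genes. More of these regulators were called without uninjured mouse 1 or 2 in both comparisons, as were more of all genes tested. The DNA damage kinases Atm and Prkdc rose by 1.70 (SE 0.32, adjusted p = 0.00274) and 1.39 (SE 0.31, adjusted p = 0.00710) in SCI + Vehicle. Trp63, a paralog of Trp53, was at 0 in both uninjured mice and at 8.46 to 14.7 CPM in SCI + Vehicle, with a mean 75.5-fold above the 3-count floor. Rfwd2, a ubiquitin ligase for p53, fell by 0.66 (SE 0.16, adjusted p = 0.0102). Of the 22 regulators of the INK4 locus, 7 were upregulated in each comparison (31.8%) and 0 downregulated. Among genes above 1 TPM in every condition 3 and 4 were called. Leaving out uninjured mouse 1 or 2 raised the calls in both comparisons, as it did over all genes tested. The 7 in SCI + Vehicle included the Polycomb genes Cbx8 and Cbx2 and the T-box repressor Tbx2, all at 0 in both uninjured mice. Their SCI + Vehicle means were 40.8-fold, 16.1-fold and 13.4-fold above the 3-count floor. They entered the fits only through the SCI groups, so their p values are no independent support.

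Of the 23 G1 cyclins, CDKs and E2F factors tested, 5 were upregulated in SCI + Vehicle and 1 downregulated, and 7 and 1 in SCI + Atorvastatin. The 21.7% and 30.4% upregulated were near the shares of all genes. Of the upregulated genes, 4 in each comparison had 0 counts in both uninjured mice. Among genes above 1 TPM in every condition 2 and 4 were called. With uninjured mouse 1 or 2 left out, more of these genes were called in both comparisons, as were more of all genes tested. Rbl1 (p107, a relative of Rb1), Cdk2 and E2f2 were at 0 in both uninjured mice and at least 61.6-fold, 40.2-fold and 27.8-fold higher in SCI + Vehicle. Ccne1, the cyclin that p21 and p27 restrain together with Cdk2, fell by 1.32 (SE 0.32, adjusted p = 0.0113), from 24.9 and 30.3 CPM to between 8.05 and 17.2 CPM. Of the 23 S and M phase genes, 7 were upregulated in SCI + Vehicle and 9 in SCI + Atorvastatin, with 0 downregulated. All 7 were at 0 in both uninjured mice, and among genes above 1 TPM in every condition 0 and 1 were called. Here too the calls rose without uninjured mouse 1 or 2, as they did over all genes tested. The 7 included Top2a, the topoisomerase of dividing cells, at 8.50 to 27.8 CPM in SCI + Vehicle and at least 92.6-fold higher, and Ccna2 and Birc5, at least 27.5-fold and 19.8-fold higher.

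Of the 15 genes of the nuclear lamina and envelope, 4 were upregulated in SCI + Vehicle and 7 in SCI + Atorvastatin, with 0 downregulated, or 26.7% and 46.7% upregulated. The SCI + Vehicle count was 2 without SCI + Vehicle replicate 5 or 6. It was higher without uninjured mouse 1, as was that of all genes tested. None was at 0 in both uninjured mice, and among genes above 1 TPM in every condition 3 and 6 were called. Sun1, which links the lamina to the cytoskeleton, rose by 1.40 in SCI + Vehicle (SE 0.23, adjusted p = 0.00138) and by 1.38 in SCI + Atorvastatin. Syne1, its partner in the outer membrane, rose by 0.51 (SE 0.11, adjusted p = 0.00543). Lbr, the lamin B receptor, rose by 1.36 (SE 0.41, adjusted p = 0.0294), from 6.59 and 11.3 CPM to between 13.4 and 37.9 CPM.

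Of 41 senescence-associated secretory genes tested, 25 were upregulated in SCI + Vehicle (61.0%) and 33 in SCI + Atorvastatin (80.5%), with 0 downregulated in either. Of those, 16 and 21 had 0 counts in both uninjured mice, and among genes above 1 TPM in every condition 8 and 11 were called. The median log2 fold change was 7.01 in SCI + Vehicle, or 2.57 with genes at 0 in both uninjured mice set against the 3-count floor. Spp1 (osteopontin) rose by 1.99 (SE 0.19, adjusted p = 8.61e-05), from 117 and 135 CPM to between 416 and 605 CPM. Plau (urokinase) and Mmp12 (macrophage elastase) were at 0 in both uninjured mice. Their SCI + Vehicle means were 261-fold and 99.7-fold above the 3-count floor, which does not bound the uninjured level. Many of these genes are also made by macrophages and fibroblasts. Of the 12 microglia or macrophage markers, 9 were upregulated in SCI + Vehicle and 10 in SCI + Atorvastatin, and their part in the list's counts was not tested.

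**Figure D4:**
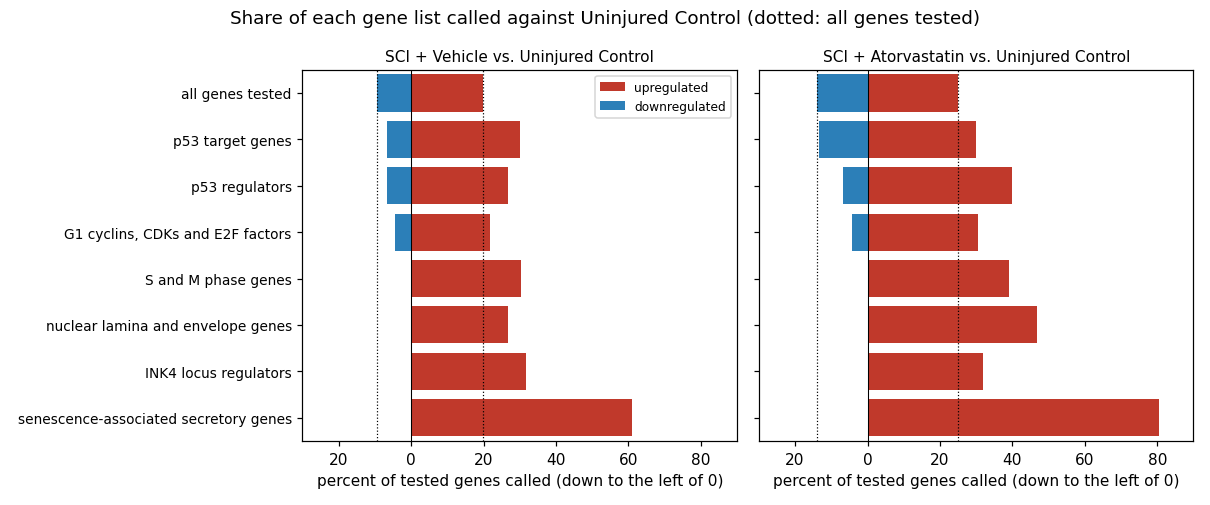
Share of the tested genes of each list (y axis) that were upregulated (red, right of 0) or downregulated (blue, left of 0) vs. Uninjured Control (x axis, percent), for SCI + Vehicle on the left and SCI + Atorvastatin on the right, with dotted lines at the shares of all genes tested. The secretory list extends to 61.0% and 80.5% upregulated, and 4 of the 7 lists have no downregulated gene.

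Between the treatments, 0 genes of the 7 lists were called by edgeR. An unadjusted p below 0.05 by edgeR was found in 11 of 41 secretory genes (26.8%), all higher in SCI + Atorvastatin. Of all 16091 genes 7.03% had one, 647 of them higher and 485 lower in SCI + Atorvastatin. The smallest adjusted p among the 11 secretory genes was 0.680. Each of the other lists had 0 to 2 such genes. The 5 fibroblast markers summed to 613 to 1853 CPM in SCI + Atorvastatin (median 1071) and 127 to 1056 CPM in SCI + Vehicle (median 588). Their part in the difference was not tested.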

How the data were processed

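Per the labels and the paper, libraries were made with a stranded total RNA kit (SMARTer Pico v2). The authors trimmed reads (Trimmomatic 0.38), aligned them to mm10 (STAR 2.5.4b) and quantified genes (RSEM 1.3.1). They deposited whole-number counts, whose rounding is not given in the sources used here, and TPM, scaled by the authors to transcript length and library total. The 16091 genes averaging over 1 TPM in any condition were tested pair by pair with edgeR 4.0.16 (TMM, quasi-likelihood, Benjamini-Hochberg over all genes tested). DESeq2 1.42.0 and limma 3.58.1 served as alternatives. CPM are TMM-normalised counts. Intervals are from the quasi-likelihood fits and include variation between mice. The floor of 3 counts covers counting error only. Reads carried no molecular identifiers. The labels number separate mice. Methods were tested on simulated data. The text names all 10 genes, of each list the 3 smallest p among genes called in each direction in SCI + Vehicle vs. Uninjured Control, every list gene called between treatments, Cdkn2d, and marker genes. The genes and lists were chosen with earlier results of these data known. Gene positions are from GENCODE M21 and promoters from RefSeq, both GRCm38.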

Additional observations from a re-analysis of the deposited data

Results flagged for a closer look

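In the groups of 7, the highest and lowest mouse of each of the 10 genes was compared with its neighbour by Dixon's criterion (20 groups tested, of which chance flags about 1 in 20). SCI + Atorvastatin replicate 7 stood out as the highest mouse for Cdkn2c, at 7.81 CPM with the next mouse at 3.94 CPM, and for Cdkn2a, at 1.83 CPM with the next at 0.730 CPM. Smooth muscle or pericyte markers (267 CPM) and endothelium markers (328 CPM) summed to the highest values of the group in this mouse. The 5 fibroblast markers summed to 1546 CPM, below the 1853 CPM of replicate 2, whose Cdkn2a count was 0. The part of these cells was not tested.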

How the results depend on the processing

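Against the Uninjured Control group, limma voom with group weights called 0 of the 10 genes in either comparison, where the adjusted p of Cdkn1a was 0.583 and 0.461, and 0 and 1 list genes in place of 65 and 84. The replicate number as a block also gave 0 for the 10 genes and 0 for the lists, though same-numbered mice were not paired (r of their deviations -0.175 to 0.102). Against Uninjured Control, only replicate numbers 1 and 2 occur in both groups. The block thus left almost no mice to estimate variation, and few genes could be called whatever their change. The block left SCI + Atorvastatin vs. SCI + Vehicle at 0. Over all genes, voom called 133 and 146 and the block 16 and 0. Requiring a mean TPM above 1 in every condition left 2 of the 10 genes out (Cdkn2a and Cdkn2c) and called 24 and 37 list genes. Leaving out 1 mouse, members called ranged from 3 to 5 and from 4 to 6, list genes from 55 to 95 and from 79 to 118, the highest of each without uninjured mouse 1, while calls between treatments and gene pairs with an adjusted p below 0.05 stayed at 0. Calls over all genes tested rose too, in both comparisons, without uninjured mouse 1 or 2. The higher counts without an uninjured mouse were therefore not particular to these genes or lists. Counts of single lists moved by over 1.5 times in 32 and 26 cases and not in 94 and 100. Between treatments, limma on log2(TPM + 1) and on log2(TPM + 0.1) each called 1 list gene, Timp1 (0.86 and 0.89).

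Some directions turned. With TPM at the pseudocounts 1 and 0.1, Cdkn1c became 1.41 and 1.68 in SCI + Vehicle and 1.56 and 1.83 in SCI + Atorvastatin vs. Uninjured Control, Cdkn1b in SCI + Vehicle 0.11 and 0.11 (0.12 by voom), and between treatments Cdkn2b 0.20 and 0.36 and Rb1 -0.087 and -0.090. On log2(TPM + 1) the median of all genes was 0.49 and 0.52 against Uninjured Control, and 3763 genes were called up and 689 down in SCI + Vehicle (3190 and 1536 by edgeR on counts) and 5078 and 1238 in SCI + Atorvastatin (4004 and 2256). With 1 mouse left out, Cdkn1b ranged from -0.56 to 0.77 and Mdm2 from -0.32 to 0.89 in SCI + Vehicle, and Cdkn1b from -0.35 to 0.99, Cdkn2b from -0.28 to 8.60 and Mdm2 from -0.14 to 1.08 in SCI + Atorvastatin. Between treatments Cdkn1c ranged from -0.028 to 0.15, Cdkn2a from -0.24 to 1.56, Rb1 from -0.041 to 0.055 and Lmnb1 from -0.034 to 0.099. The cause of these turns was not tested. With 1 uninjured mouse left, that mouse was assumed to vary like the injured mice.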
